A study of Rattus norvegicus with 6 samples.

Results

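A group of 10 enzymes that turn glutathione conjugates into mercapturates or into thiols was followed in the renal cortex of rats given the fungicide chlorothalonil. They were chosen by name, with earlier results of these data known: Ggt1, Ggt5 and Ggt6, Dpep1 and Anpep, Nat8, Acy1 and Acy3, and Kyat1 and Kyat3. These 10 genes, out of 15645 named genes on the array, were measured by 11 probes whose RefSeq transcript belongs to one of them, with 2 probes for Kyat1 and 1 for each of the others. The renal cortex, the outer layer of the kidney, contains much of the proximal tubule, where these enzymes act. All animals were male Sprague-Dawley rats, 5 weeks old when obtained: 3 were given chlorothalonil at 500 mg/kg/day for 4 weeks, and 3 were given corn oil for the same 4 weeks. Each animal gave 1 Agilent 1-colour array. The 3 chlorothalonil arrays lay on 1 slide and the 3 corn oil arrays on another, so an effect of the slide and one of chlorothalonil cannot be told apart here. The source name of chlorothalonil replicate 3 states ethylenediamine dihydrochloride while its other labels state chlorothalonil, so each member's log2 fold change is also given without that array.

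A foreign compound that has been joined to glutathione is dismantled from one end. Gamma-glutamyltransferases take off the glutamate on the outer face of the cell, and dipeptidases and aminopeptidases of the brush border take off the glycine, which leaves a cysteine conjugate. In the proximal tubule this conjugate can be acetylated by Nat8 to a mercapturate and excreted, or split by a cysteine conjugate beta-lyase such as Kyat1 into a reactive thiol. Aminoacylases can remove the acetyl group again and return a mercapturate to the cysteine conjugate. Chlorothalonil is known to be conjugated to glutathione in the rat, and thiol metabolites of it are known from rat urine.

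With chlorothalonil against corn oil, 0 of the 10 enzymes passed an adjusted p of 0.05 in limma (a linear model fitted to all features, with Benjamini-Hochberg adjustment), where 3.12% of the 29115 features tested did. Acy1 and Nat8, 2 of the 10, had a limma p under 0.05 before adjustment, against 19.7% of all features. The groups did not overlap for Acy1, Nat8 and Kyat1, 3 of the 10, against 27.7% of all features. Both shares are close to those of all features. Ggt6 passed the filter on dim probes only through its chlorothalonil arrays and is set apart from the tallies that follow, except where stated. The log2 fold changes, chlorothalonil minus corn oil, of the other 9, well above background on all 6 arrays, ran from −0.38 for Anpep to 0.37 for Kyat3. Of these 9, 7 were above 0, and their median was 0.23, against −0.0028 over the 26934 features measured as fully. With Ggt6 the median was 0.25 and 8 of 10 were above 0. Over those 10, the median was 0.085 when corn oil replicate 2 was left out. When chlorothalonil replicate 3 was left out, it was 0.20, and 6 of 10 were above 0. These medians with an array left out include Ggt6 and were not computed for the 9, so they do not show how far the 0.23 moves. In bulk tissue, fewer cells of a type and less RNA per cell cannot be told apart.

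**Figure D1:**
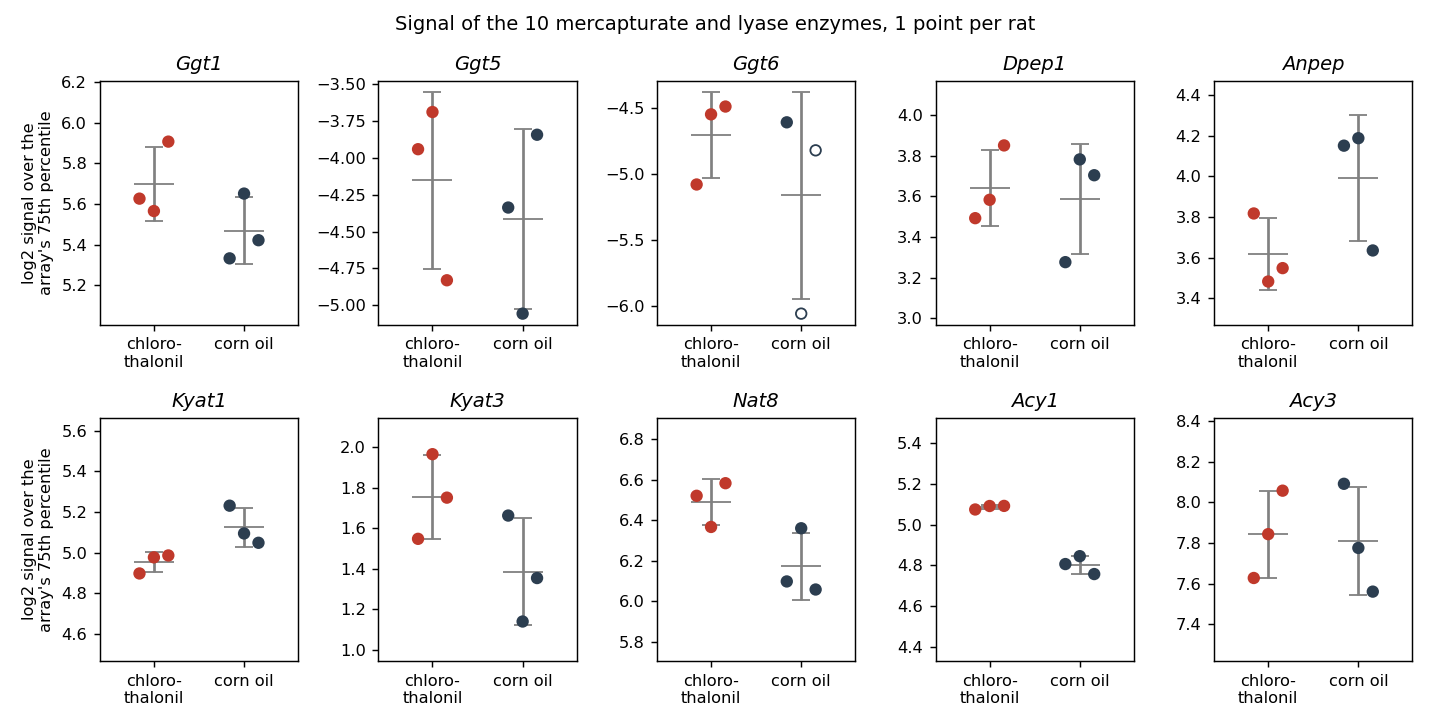
log2 signal of each enzyme relative to the array's 75th percentile (vertical axis), with 1 point per rat, chlorothalonil (red) left of corn oil (dark); horizontal bars are group means, whiskers 1 SD, and open points are spots not well above background. The groups are apart for Nat8, Acy1 and Kyat1, and each panel has its own vertical range.

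The sequences before the start of Acy1, Nat8 and Kyat1 are shown because these were the members whose groups did not overlap. That of Gstp1, a glutathione S-transferase of the conjugation step before them, is shown beside them because it rose by 2.93 ± 0.14 (SE) on the log2 scale, with a limma adjusted p of 0.00297. Each run holds the 250 bases before the annotated start, 5′ to 3′ on the gene's strand, from RefSeq on build GRCr8. Capitals mark matches to TGACNNNGC, the core of the antioxidant response element, which was searched on both strands and was the only motif searched.
Acy1, chr8:115956406-115956655, minus strand: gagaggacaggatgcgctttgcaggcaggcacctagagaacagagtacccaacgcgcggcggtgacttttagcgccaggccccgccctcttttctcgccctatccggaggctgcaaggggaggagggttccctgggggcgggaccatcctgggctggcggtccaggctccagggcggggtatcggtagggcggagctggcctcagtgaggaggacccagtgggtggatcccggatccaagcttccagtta
Nat8, chr4:119837765-119838014, minus strand: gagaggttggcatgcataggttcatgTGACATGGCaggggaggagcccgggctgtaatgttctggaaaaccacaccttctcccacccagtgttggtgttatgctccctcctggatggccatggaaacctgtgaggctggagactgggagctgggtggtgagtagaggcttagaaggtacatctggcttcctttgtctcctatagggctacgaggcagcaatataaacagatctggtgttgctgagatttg
Kyat1, chr3:33871552-33871801, minus strand: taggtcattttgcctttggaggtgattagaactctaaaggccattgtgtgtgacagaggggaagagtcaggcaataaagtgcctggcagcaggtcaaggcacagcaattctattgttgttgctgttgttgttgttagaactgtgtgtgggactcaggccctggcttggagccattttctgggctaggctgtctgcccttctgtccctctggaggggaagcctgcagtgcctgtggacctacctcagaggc
Gstp1, chr1:210769706-210769955, minus strand: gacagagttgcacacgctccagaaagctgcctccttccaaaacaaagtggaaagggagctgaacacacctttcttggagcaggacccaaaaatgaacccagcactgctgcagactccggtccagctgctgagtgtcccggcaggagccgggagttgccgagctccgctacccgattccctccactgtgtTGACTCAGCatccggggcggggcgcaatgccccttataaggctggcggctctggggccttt
Nat8 held 1 match, TGACATGGC, 224 bases before its start, and Acy1 and Kyat1 held 0. Gstp1 held 1 match, TGACTCAGC, 61 bases before its start. Of the members, 9 had a promoter entry and 1 of those 9, or 11.1%, held the motif, against 10.1% of 33469 promoters in all. The 20 glutathione conjugation genes with a promoter entry, called or not, had 22 promoters, and 5 of these held it, or 22.7%. Whether these shares differ was not tested. A match is a description of letters in this window and does not show binding.

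Ggt1 is the main gamma-glutamyltransferase of the proximal tubule brush border and opens the pathway. Its signal was 49.4, 47.4 and 60.0 times the array's 75th percentile in the 3 chlorothalonil rats, against 40.3, 50.3 and 42.9 times it in the 3 corn oil rats. The groups overlapped, since corn oil replicate 2 lay above chlorothalonil replicates 1 and 2, and chlorothalonil replicate 3 was the highest. The log2 fold change was 0.23 ± 0.13 (SE), with a 95% interval from −0.086 to 0.55 and a limma adjusted p of 0.386. Without chlorothalonil replicate 3 it was 0.13.

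Ggt5, which acts on leukotriene C4, and Ggt6, a further member of the family, were dim. Ggt5 had 0.0651, 0.0776 and 0.0352 times the 75th percentile with chlorothalonil, against 0.0495, 0.0300 and 0.0697 times it with corn oil. The 2 groups spread over almost the same range, and the SD on the log2 scale was 0.60 with chlorothalonil and 0.61 with corn oil. Its log2 fold change of 0.26 ± 0.41 (SE), with a limma adjusted p of 0.776, was 0.60 without chlorothalonil replicate 3 and turned to −0.064 without corn oil replicate 2. Ggt6 had 0.0295, 0.0427 and 0.0445 times the 75th percentile with chlorothalonil, against 0.0409, 0.0150 and 0.0353 times it with corn oil. It was well above background on all 3 chlorothalonil arrays and on 1 of 3 corn oil arrays, so its difference adds no weight to the counts that include it. Its log2 fold change was 0.46 ± 0.41, with a limma adjusted p of 0.588. It was 0.0091 without corn oil replicate 2, 0.35 without chlorothalonil replicate 3 and 0.21 with normexp, another background correction, under which that of Ggt5 was 0.13. In the RefSeq annotation of GRCr8, Ggt1 and Ggt5 lie beside each other with 0 protein-coding genes between them.

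Dpep1, the renal membrane dipeptidase, and Anpep, aminopeptidase N, both split the cysteinylglycine conjugate that Ggt1 leaves. Dpep1 had 11.3, 12.0 and 14.4 times the 75th percentile with chlorothalonil, against 9.69, 13.8 and 13.0 times it with corn oil, and the groups overlapped throughout. Its log2 fold change was 0.055 ± 0.17 (SE), with a 95% interval from −0.35 to 0.46. The sign turned without chlorothalonil replicate 3, at −0.050, and without corn oil replicate 1, at −0.10. Anpep had 14.1, 11.2 and 11.7 times the 75th percentile with chlorothalonil, against 17.8, 18.2 and 12.4 times it with corn oil. Corn oil replicates 1 and 2 lay above every chlorothalonil rat, while corn oil replicate 3 lay among them. The log2 fold change of Anpep was −0.38 ± 0.18, with a 95% interval from −0.81 to 0.063 and a limma adjusted p of 0.316. It was −0.55 without corn oil replicate 3, with an unadjusted limma p of 0.00700 and an adjusted p of 0.136, and between −0.48 and −0.28 without any other single array. Without chlorothalonil replicate 3 it was −0.34.

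Nat8 is the enzyme that acetylates cysteine conjugates to mercapturates. Its signal was 91.8, 82.5 and 95.8 times the 75th percentile with chlorothalonil, against 68.5, 82.1 and 66.6 times it with corn oil. Every chlorothalonil rat lay above every corn oil rat, but chlorothalonil replicate 2 and corn oil replicate 2 nearly met. The log2 fold change was 0.32 ± 0.11 (SE), or 1.25-fold, with a 95% interval from 0.050 to 0.58, an unadjusted limma p of 0.0273 and an adjusted p of 0.191. With any single array left out it lay between 0.26 and 0.41, and the unadjusted limma p ranged from 0.00761 to 0.0845. Without chlorothalonil replicate 3 the log2 fold change of Nat8 was 0.27, with an unadjusted limma p of 0.0843. Only 1 member was then under 0.05, against 2 in the reported fit. Over all features, the number at that level also fell, from 5748 to 4980. Close copies of Nat8 lie in the same gene family, and the share of the signal that is its own is uncertain. Its relatives Nat8f1, Nat8f5 and Nat8b, chosen after their values were seen, had log2 fold changes of 0.42 ± 0.18, 0.41 ± 0.17 and −0.16 ± 0.16, and none passed.

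Acy1, the cytosolic aminoacylase that removes acetyl groups from many N-acetylated amino acids, had the smallest p of the members. It had 33.7, 34.1 and 34.1 times the 75th percentile with chlorothalonil, against 28.0, 28.7 and 27.0 times it with corn oil. The 3 chlorothalonil rats were nearly alike and all lay above the 3 corn oil rats, with an SD on the log2 scale of 0.010 with chlorothalonil and 0.044 with corn oil. The log2 fold change was 0.28 ± 0.058 (SE), or 1.22-fold, with a 95% interval from 0.14 to 0.43, an unadjusted limma p of 0.00300 and an adjusted p of 0.0705. Ordered by p, it was feature 1238 of 29115. It passed in 1 of the 18 alternative settings, the one that moderates the variance with a trend and robustly, with an adjusted p of 0.0202, and over all 18 the adjusted p ranged from 0.0202 to 0.207. With any single array left out the log2 fold change lay between 0.26 and 0.305, and without chlorothalonil replicate 3 it was 0.28. Acy3, the aminoacylase that acts on mercapturates of aromatic and halogenated compounds, had 198, 229.7 and 266 times the 75th percentile with chlorothalonil, against 273, 219 and 189 times it with corn oil. The highest and the lowest of its 6 values were both in corn oil rats. Its log2 fold change was 0.034 ± 0.17, with a 95% interval from −0.39 to 0.46, and turned to −0.18 with quantile normalization, −0.074 without chlorothalonil replicate 3 and −0.091 without corn oil replicate 3.

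Kyat1, also called glutamine transaminase K, is the main cysteine conjugate beta-lyase of rat kidney cytosol, and was read by 2 probes. The brighter probe had 29.8, 31.5 and 31.7 times the 75th percentile with chlorothalonil, against 37.5, 34.2 and 33.1 times it with corn oil. The other probe had 26.5, 27.2 and 27.1 times it with chlorothalonil, against 31.2, 30.8 and 29.5 times it with corn oil. On both probes every chlorothalonil rat lay below every corn oil rat. The log2 fold change was −0.17 ± 0.074 (SE), or 0.888-fold, on the brighter probe, with a 95% interval from −0.35 to 0.012 and a limma adjusted p of 0.280, and it was −0.19 without chlorothalonil replicate 3. On the other probe it was −0.18 ± 0.059, with an unadjusted limma p of 0.0240 and an adjusted p of 0.191 when every probe was tested on its own. Both probes read the same 6 RNA samples and are not replicates of each other. Kyat3, a related aminotransferase with lyase activity, had 2.92, 3.90 and 3.37 times the 75th percentile with chlorothalonil, against 3.17, 2.20 and 2.56 times it with corn oil. The groups overlapped in 1 place, where corn oil replicate 1 lay above chlorothalonil replicate 1. Its log2 fold change was 0.37 ± 0.17, with a 95% interval from −0.046 to 0.78 and a limma adjusted p of 0.302, and it was 0.37 without chlorothalonil replicate 3. With another array left out it lay between 0.25 (corn oil replicate 2 left out) and 0.51 (corn oil replicate 1), and with normexp it was 0.17.

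Ratios of 2 members within an array do not depend on how the arrays were scaled. They are given as a description, since the pairs were chosen after their values were seen. Relative to the corn oil mean, the log2 ratio of Nat8 to Kyat1, the acetylation and lyase branches, was 0.58, 0.34 and 0.55 in the chlorothalonil rats, against −0.18, 0.22 and −0.038 in the corn oil rats. The ratio of Acy1 to Kyat1 was 0.50, 0.44 and 0.43 with chlorothalonil, against −0.10, 0.073 and 0.030 with corn oil. These values could not overlap between the groups, because Nat8 and Acy1 were wholly higher and Kyat1 wholly lower with chlorothalonil. The ratio of Nat8 to Acy1 overlapped, at 0.076, −0.095 and 0.12 with chlorothalonil, against −0.078, 0.15 and −0.068 with corn oil. The ratio of Kyat3 to Kyat1 averaged 0.54 with chlorothalonil relative to the corn oil mean, without overlap. The ratio of Ggt1 to Anpep averaged 0.61, without overlap but nearly meeting at 0.33 with chlorothalonil and 0.31 with corn oil. The ratio of Dpep1 to Anpep averaged 0.43 and overlapped, at 0.079, 0.50 and 0.71 with chlorothalonil, against −0.47, −0.0019 and 0.47 with corn oil.

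The 95% intervals, each taken alone, lay inside a 2-fold change in either direction for 8 of the 9 members well above background on all 6 arrays, as they did for 91.3% of the features measured as fully. The exception was the dim Ggt5, from −0.75 to 1.27, and the interval of Ggt6 ran from −0.54 to 1.46. The differences of these 9 had a median size of 0.26 on the log2 scale, against 0.13 over those features. The arrays also carry control probes for a spike-in RNA, and 8 of these were well above background on every spot. Their log2 differences, chlorothalonil minus corn oil, ran from −0.34 to 0.047, with a median of −0.13. The sources used here do not say whether each sample received an equal amount. The log2 fold changes of Kyat1 and Acy3 lie inside this range and that of Anpep just below it. Those of Acy1 and Nat8 lie above it, as do those of Ggt1, Ggt5, Ggt6, Dpep1 and Kyat3. The −0.34 end came from the dimmest of these control probes, while those nearest Anpep in brightness were at −0.12 and −0.14. With the arrays scaled to these probes, a setting added after seeing the data, the median over all features became 0.15. Kyat1 was then at −0.022, Anpep at −0.23, Ggt1 at 0.38, Acy1 at 0.43 and Nat8 at 0.47. Under that scaling 0 members passed in limma, where 2.55% of all features did. An unadjusted limma p under 0.05 was then found for 4 members and 7343 features, against 2 members and 5748 features in the reported fit. The part of the slide in these differences was not tested.

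**Figure D2:**
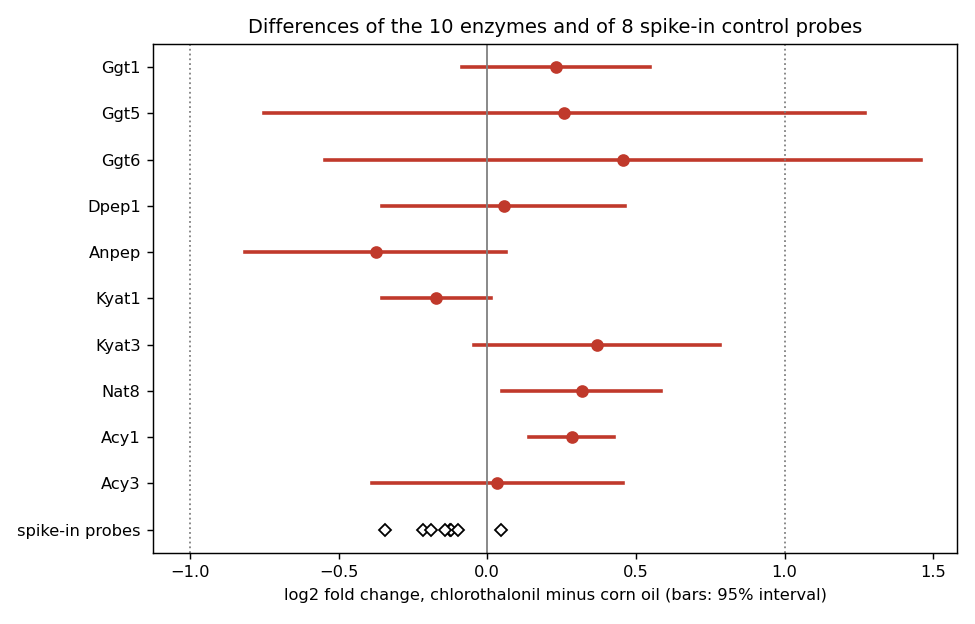
log2 fold changes, chlorothalonil minus corn oil (horizontal axis), of the 10 enzymes with 95% intervals (bars), above the differences of 8 spike-in control probes (open diamonds); dotted lines mark a 2-fold change. The intervals of Ggt5 and Ggt6 cross the upper dotted line, and those of Acy1 and Nat8 lie above 0.

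Conjugation and transport gave calls, while glutathione synthesis and the gamma-glutamyl cycle, also before the members, gave 0 in 8 genes. Of 21 glutathione conjugation enzymes tested, 9 rose, 0 fell and 12 did not pass, where 1.30% of all features rose and 1.82% fell. Gstm3, named after its values were seen, is 1 of the 9 and passed the filter on dim probes only through its chlorothalonil arrays. Of the 19 well above background on all 6 arrays, 8 rose and 0 fell. Beside Gstp1 these included Gsta3, at 1.63 ± 0.083 (SE) with a limma adjusted p of 0.00336, and Gsta1, at 1.15 ± 0.075 with 0.00592. With the mean of a gene's probes in place of the brightest, Gsta3 was at 2.56 and Gstp1 at 3.88. Glutathione S-transferases are families of near-identical genes, so how each signal divides among them is uncertain. The median log2 fold change of those 19 was 0.62, against 0.23 for the 9 members measured as fully. The count of 9 was 4 without any one chlorothalonil array and 5 without corn oil replicate 2, and with no filter on dim probes it was also 4. The share of all features called fell too, from 3.12% to between 0.381% and 0.613% without a chlorothalonil array. It was 1% without corn oil replicate 2 and 0.379% with no filter on dim probes. Of 10 transporters of conjugates and amino acids, 4 rose and 0 fell, and 6 did not pass. The conjugate exporters Abcc3 and Abcc4 rose by 2.23 ± 0.097 and 2.13 ± 0.099, and Abcc1 rose by 0.62 ± 0.058, with limma adjusted p of 0.00224, 0.00297 and 0.0108. Abcc2 and Abcg2 are named after their values were seen. Abcc2 rose by 2.31 ± 0.25, with a limma adjusted p of 0.0144, while Abcg2 was at −0.26 ± 0.068 and did not pass, at 0.113. The count of 4 was 3 without chlorothalonil replicate 1 or 3, 2 without chlorothalonil replicate 2, and also 2 with no filter on dim probes. With the replicate number as a block, the conjugation and transport counts were both 0, as was the count over all features.

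**Figure D3:**
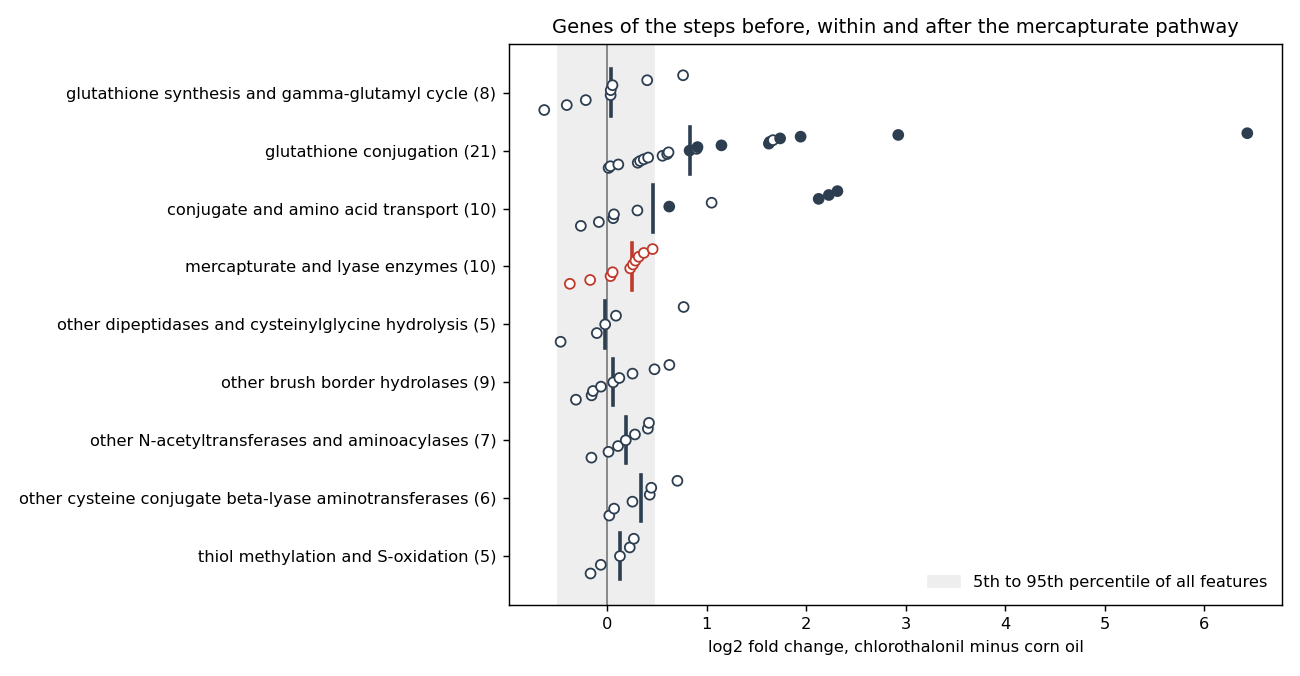
log2 fold changes, chlorothalonil minus corn oil (horizontal axis), of the 10 enzymes (red) and of genes of neighbouring steps (dark), with 1 circle per gene, filled where the limma adjusted p was under 0.05; vertical bars are list medians and the grey band spans the 5th to 95th percentile of all features. Filled circles appear for conjugation and transport, and all 10 circles of the mercapturate and lyase enzymes are open and lie inside the band.

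The other genes around the members gave no call: limma called 0 of 40 in 6 lists, and 7 of them reached p under 0.05 before adjustment, where 19.7% of all features did. Among 8 genes of glutathione synthesis and the gamma-glutamyl cycle, 1 had such a p, Ggt7, a relative of Ggt1, at −0.41 ± 0.13 (SE), or −0.094 with normexp and then with a limma p of 0.278. Among 5 other dipeptidases it was 1, Dpep2, another membrane dipeptidase, at 0.77 ± 0.20 with a limma adjusted p of 0.119, or 0.36 with normexp. Among 7 other acetyltransferases and aminoacylases it was 1, the arylamine acetyltransferase Nat1, at 0.28 ± 0.094. Among 6 other enzymes known to have cysteine conjugate lyase activity it was 2, led by the aminotransferase Abat at 0.71 ± 0.16 with a limma adjusted p of 0.0920, and the log2 fold changes of all 6 were above 0, with a median of 0.34. Among 5 flavin monooxygenases, which can oxidise sulfur, it was 2, led by Fmo4 at 0.23 ± 0.082. Among 9 other hydrolases of the brush border it was 0, and the smallest p was that of Ace, the angiotensin-converting enzyme, at −0.31 ± 0.16, or −0.17 with the mean of its probes.

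The arrays had 66.6% to 67.8% of probes well above background with chlorothalonil and 62.1% to 66.8% with corn oil, and 0 saturated probes. Of 48 cell type markers tested in 8 lists, limma called 0, and 13, or 27.1%, reached p under 0.05 before adjustment, against the 19.7% of all features. All 10 proximal tubule markers, such as Lrp2, Cubn and Slc34a1, passed the filter on dim probes. Their signals summed to 1833 to 1905 times the 75th percentile with chlorothalonil, against 1619 to 1746 times it with corn oil, and 6 of 10 had a log2 fold change above 0. The 4 red blood cell markers summed to 556 to 602 times it with chlorothalonil, against 475 to 497 times it with corn oil. Of 7 macrophage and leukocyte markers 6 were tested, and these summed to 32.7 to 37.0 times it with chlorothalonil, against 39.6 to 49.7 times it with corn oil. Such sums follow their brightest markers, and Cd74, at −0.30 on the log2 scale, was by far the brightest of the 6. Of these 6, 5 were below 0, with Cd68 at −0.082, and Ptprc was at 0.0044. Among proximal tubule markers, 4 were wholly higher with chlorothalonil and 2 wholly lower (Slc5a2 at −0.35, Slc5a12 at −0.27). All 4 red blood cell markers were wholly higher, at 0.24 to 0.45 on the log2 scale, each with an unadjusted limma p under 0.05. Over all features, 27.7% did not overlap. The summed levels of the other 5 lists overlapped between the groups. Cd3e was well above background on 2 arrays, and the distal tubule marker Pvalb on 0. The part of these marker differences in the members' values was not tested.

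**Figure D4:**
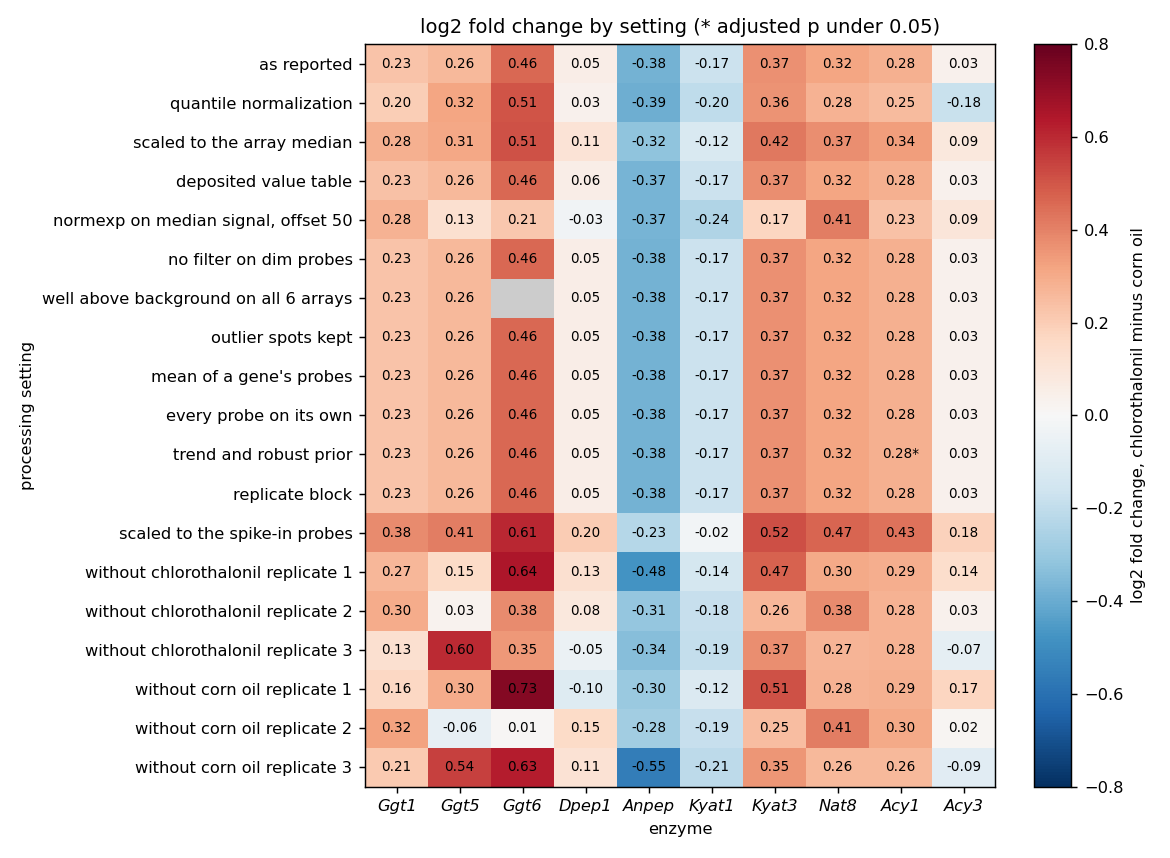
log2 fold change, chlorothalonil minus corn oil, of each enzyme (columns) in the reported fit and in 18 other settings (rows), coloured from blue (below 0) to red (above 0); the star marks an adjusted p under 0.05 and grey a gene not tested. Acy1 carries the only star, and signs change only for Ggt5, Dpep1 and Acy3.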

How the data were processed

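RNA of the renal cortex was measured on Agilent 1-colour arrays, 1 per animal. Per the labels' protocols, total RNA was amplified and labelled with Cy3. The deposited spot intensity is a processed signal from Agilent Feature Extraction (version 10.7 in the submitters' processing notes). Per the file headers, background subtraction and spatial and multiplicative detrending were done on each array by itself. The value table that the authors also deposited was found, by division, to be a ratio of this signal to a single number per array near its 75th percentile. Its scale is linear, it is not centred, and its column medians were 0.105, 0.105 and 0.106 with chlorothalonil and 0.107, 0.109 and 0.112 with corn oil.

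Here the processed signal was put on a log2 scale and each array's 75th percentile over 61537 probes, controls left out, was subtracted. The filter on dim probes asked for a signal well above background on every array of either group, and for 2 or more arrays per group without an outlier mark; 39862 probes met it. Genes were named by unversioned accession through the RefSeq gene table of GRCr8, and 28206 matched 1 gene. The brightest probe of a gene was taken, giving 29115 features, 11926 of them named genes, which were fitted with limma 3.58.1 in R 4.3.3 with no covariate, chlorothalonil minus corn oil. Intervals are 95% intervals from that fit, and the number of arrays limits their precision. The fit was tested on simulated data.

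The members, the gene lists and the rule for named genes were chosen with earlier results of these data known. The rule took all 10 members and, from each of 8 pathway lists, up to 3 genes past the threshold or else the gene with the smallest p. The alternatives were quantile, array median and spike-in scaling, the deposited table, normexp, other filters and probe summaries, another variance prior, the replicate number as a block, and each array left out. A planned block for slide had no solution, since each slide held 1 group. The planned normexp correction used the median spot signal, with an offset of 50, because these files hold no mean spot signal.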

Additional observations from a re-analysis of the deposited data

How the results depend on the processing

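Across 18 alternatives, 171 of 179 recomputed member differences kept their direction and their side of the threshold in limma. Acy1 alone passed in 1, the prior with trend and robust fitting, so the count of members changed was 1 there and 0 in each other setting. With that prior 4.52% of all features passed. Reversals were found for Acy3 (−0.18 with quantile normalization, −0.074 without chlorothalonil replicate 3, −0.091 without corn oil replicate 3), for Dpep1 (−0.028 with normexp, −0.050 without chlorothalonil replicate 3, −0.10 without corn oil replicate 1) and for Ggt5 (−0.064 without corn oil replicate 2); the cause was not tested. With 1 array left out, these genes ranged from −0.091 to 0.17 (Acy3), −0.10 to 0.15 (Dpep1) and −0.064 to 0.60 (Ggt5). Ggt6 was not tested where a probe had to be well above background on all 6 arrays. The members' median was 0.15 with normexp, 0.39 with spike-in scaling and 0.085 to 0.23 with 1 array left out. Of all features, 909 changed; the number was 172 with no filter on dim probes and 112 to 388 with 1 array left out. With the replicate block it was 0 in limma, with 5271 at an unadjusted p under 0.05, and 1 member at that level. Same-numbered arrays' deviations correlated at 0.095, 0.018 and 0.051, and 2 of 3 chlorothalonil arrays correlated best with their own number. These correlations do not settle whether the numbers are pairs. The numbers were not taken as pairs because the labels give no pairing. The slide as a block was not run. Low signal over background limits Ggt5 and Ggt6, whose intervals reach past a 2-fold change.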
